A study of Mus musculus with 6 samples.

Results

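The 44 genes described here encode hydrolases of the lysosome, the activator proteins those enzymes need, and proteins of the lysosomal membrane. They were taken from a list of named genes, and all 44 were in the array annotation, out of 18193 genes measured. RNA came from SVI cells, mouse podocytes of a conditionally immortalized line, differentiated at 38 °C in medium with 10% serum. The 3 stretched samples were stretched biaxially in cycles for 3 days, at 0.5 Hz and up to 5% linear strain, and the 3 unstretched samples were the same line without it. Every sample is of this 1 line, so the arrays describe a cultured podocyte model and not the glomerulus. The series names 3 independent batches without tying a sample to any, so p-values measure the spread between these samples, which may be partly technical. Each sample was read on 1 Affymetrix array, and the number of arrays limits the precision of every value.

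Lysosomes are acidic compartments in which soluble hydrolases, each specific for a bond or a sugar, take apart glycolipids, glycosaminoglycans, glycoproteins, glycogen, lipids and proteins delivered by endocytosis and autophagy. A heavily glycosylated membrane shields the cytosol and carries the products out. Podocytes, the epithelial cells that cover the glomerular capillaries, are long-lived and depend on this turnover: in human Fabry disease, loss of the α-galactosidase Gla leaves glycolipid deposits in them, and human mutations of the membrane protein gene Scarb2 cause kidney failure. Many of these genes are known targets of the transcription factors Tfeb, Tfe3 and Mitf, which bind E-box sequences near transcript starts.

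Log2 changes were negative for 40 of the 44 lysosomal genes and positive for 4, beside 9743 negative among all 18193 genes. In stretched cells 24 of the 44 fell (limma, Benjamini-Hochberg adjusted p under 0.05 over all genes), 0 rose and 20 did not pass. At an unadjusted p under 0.05, 25 were lower and 0 higher, beside 13.4% lower and 14.4% higher of all genes. Over all genes measured, 6.76% were called lower and 7.98% higher, and among genes whose probe set was at least as bright as that of the median gene 10.5% were called lower. The median log2 change of the 44 was -0.33, beside -0.02 over all genes. All 3 stretched values lay below all 3 unstretched values for 28 of the 44, against 16.6% of all genes, and all 3 lay above for 0 of the 44, against 16% of all genes. The falls ranged from 1.01 for the peptidase gene Ctso down to 0.29 for Tpp1 on the log2 scale, with a median log2 change of -0.51 among the 24. Of the 24, 12 were at least 0.5 log2 units lower. The median log2 value of the 44 was 8.02, 7.94 and 7.99 on the stretched arrays, against 8.28, 8.25 and 8.34 on the unstretched arrays. These arrays read RNA of whole cultures, in which fewer cells of a type and less RNA per cell cannot be told apart.

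**Figure D1:**
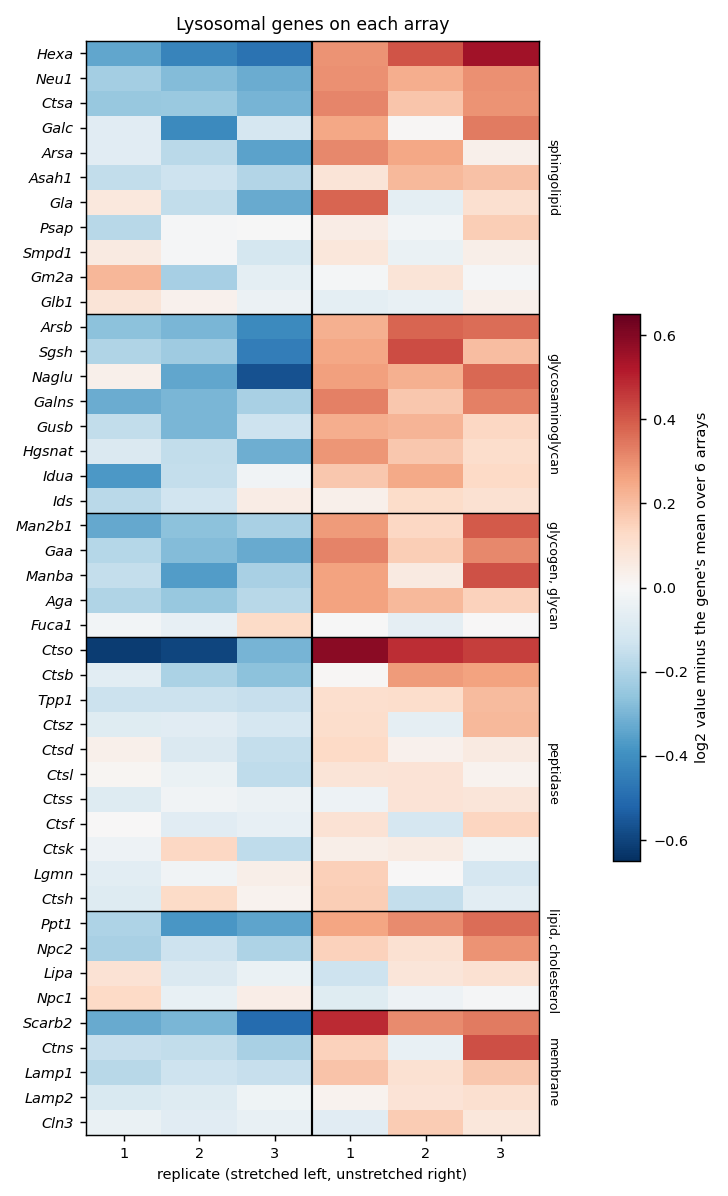
Each row is 1 of the 44 genes, grouped by what the protein does, and each column is an array (3 stretched on the left, 3 unstretched on the right). Colour gives the log2 value minus that gene's mean over the 6 arrays, and most rows are blue on the left and red on the right, as for Hexa, Arsb, Ctso and Scarb2.

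Of the 24 calls, 12 held whichever single array was left out and under the 10 other settings tried: Hexa, Neu1, Ctsa, Arsb, Sgsh, Galns, Gaa, Man2b1, Aga, Ctso, Ppt1 and Scarb2. The count of genes that fell was 13 without stretched replicate 2 and 15 without stretched replicate 3, and 0 of the 44 rose in any of these limma fits. RNA quality was read from the actin and Gapdh control probe sets. For actin the 3' signal exceeded the 5' signal, in log2 units, by 1.30 ± 0.05 in stretched and 1.57 ± 0.03 in unstretched samples (SD, n = 3 each). For the Gapdh control probe sets the groups overlapped, at 0.16 ± 0.10 in stretched and 0.25 ± 0.07 in unstretched samples. Their part in the falls was not tested. The spread of log2 values over probe sets was also wider on stretched arrays (SD 2.07 to 2.10) than on unstretched arrays (2.03 to 2.05). With the arrays quantile normalized again, which levels that spread, 25 of the 44 fell and 0 rose, and over all genes 1149 were called higher and 1544 lower, beside 1452 and 1229 without that step.

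Of the 24 genes that fell, 16 had 27 further probe sets. In a fit of every probe set 25 of the 27 had negative log2 changes, with a median of -0.23, and 7 passed as lower and 0 as higher. The 7 belonged to Ctsb, Man2b1, Neu1, Npc2, Ppt1 and Tpp1. The 2 with positive log2 changes were dim probe sets of Galns (0.02, adjusted p = 0.920) and Gusb (0.10, adjusted p = 0.663).

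Some of the genes share a sequence feature, the E-box bound by Tfeb, Tfe3 and Mitf, of which many lysosomal genes are known targets. Promoter windows from 250 bases before to 50 bases after an annotated transcript start were found for 37 of the 44 genes (RefSeq, GRCm38.p6). The E-box core CACGTG reads the same on both strands. It was in a window of 13 of these 37 genes (35.1%), beside 10.2% of the 14452 measured genes with a window. The longer form TCACGTGA, which contains that core, was in 4 of 37 (10.8%) beside 1.63%. The core was in 6 of the 19 genes that fell and had a window (31.6%) and in 7 of the 18 that did not pass (38.9%). A match is a description of the letters in the window, not a binding site. Below are the 150 bases before the start for the 6 genes that fell with a core in that stretch, and for Ctsd and Cln3, which did not pass and hold the longer form, with the core in capitals. They lie, in GRCm38.p6, as follows: Sgsh at chr11:119355511-119355660 (minus strand), Naglu at chr11:101069944-101070093 (plus strand), Gaa at chr11:119267813-119267962 (plus strand), Ctsa at chr2:164833623-164833772 (plus strand), Arsa at chr15:89477425-89477574 (minus strand), Lamp1 at chr8:13159011-13159160 (plus strand). The windows of the genes that did not pass are Ctsd at chr7:142387828-142387977 (minus strand) and Cln3 at chr7:126583237-126583386 (minus strand).
Sgsh: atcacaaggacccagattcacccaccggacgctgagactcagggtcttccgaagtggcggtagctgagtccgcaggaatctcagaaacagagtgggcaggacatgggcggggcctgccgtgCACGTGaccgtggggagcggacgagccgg
Naglu: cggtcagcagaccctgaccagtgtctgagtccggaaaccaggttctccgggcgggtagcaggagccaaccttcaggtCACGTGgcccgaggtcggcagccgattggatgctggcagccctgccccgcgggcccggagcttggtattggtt
Gaa: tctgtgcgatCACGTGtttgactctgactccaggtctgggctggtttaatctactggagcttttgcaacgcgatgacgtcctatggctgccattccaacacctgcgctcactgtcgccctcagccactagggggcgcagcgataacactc
Ctsa: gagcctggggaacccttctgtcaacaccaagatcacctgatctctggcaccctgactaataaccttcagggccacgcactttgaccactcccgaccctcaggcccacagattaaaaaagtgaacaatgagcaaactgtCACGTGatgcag
Arsa: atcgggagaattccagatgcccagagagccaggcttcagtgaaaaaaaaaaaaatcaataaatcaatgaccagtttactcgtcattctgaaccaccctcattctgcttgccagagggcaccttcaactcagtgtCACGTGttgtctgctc
Lamp1: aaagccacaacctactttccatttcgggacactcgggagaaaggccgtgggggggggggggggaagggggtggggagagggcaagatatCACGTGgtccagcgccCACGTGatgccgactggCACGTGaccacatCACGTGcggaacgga
Ctsd: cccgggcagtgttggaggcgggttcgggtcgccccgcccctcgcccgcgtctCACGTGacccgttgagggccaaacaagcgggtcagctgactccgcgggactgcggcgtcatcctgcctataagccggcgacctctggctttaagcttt
Cln3: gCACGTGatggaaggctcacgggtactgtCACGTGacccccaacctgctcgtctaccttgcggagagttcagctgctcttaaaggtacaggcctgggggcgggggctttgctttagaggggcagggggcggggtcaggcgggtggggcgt

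Lamp1, which encodes the most abundant type of lysosomal membrane glycoprotein, held 4 cores, and they began 61, 45, 28 and 15 bases before its start. In Ctsa the core began 12 bases before the start, within the longer form. A match 5 bases after a start was also found for Ctsa. Matches were pooled over all windows of a gene, so it may be the same site counted from another start. For Ctsa, Naglu and Cln3 the transcript start used was not at the annotated end of the gene. Gla, which did not pass, had 2 matches to the longer form, beginning 227 and 194 bases before its start. The windows of Hexa, Neu1, Arsb, Ctso, Ppt1 and Scarb2, all of which fell, held no CACGTG, which says only that these letters are not in those windows.

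**Figure D2:**
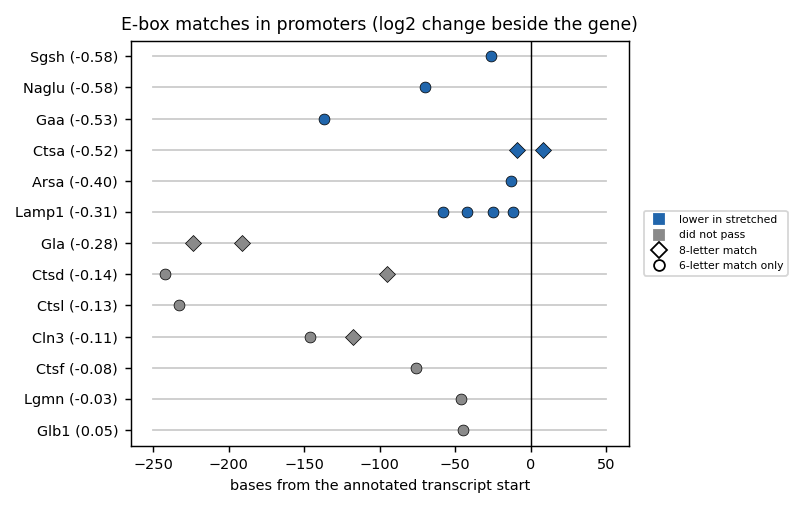
Positions of CACGTG cores in the 13 promoter windows that held any, in bases from the annotated transcript start, with the log2 change (stretched minus unstretched) in brackets and the genes sorted by it. Diamonds mark cores within TCACGTGA; genes that fell (blue) and genes that did not pass (grey) both carry cores within 50 bases of the start, such as Lamp1 and Lgmn.

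Among enzymes and activators of sphingolipid breakdown 6 of 11 fell and 0 rose, with a median log2 change of -0.32. Hexa, the α subunit of the hexosaminidase that trims GM2 ganglioside, had log2 values of 9.85, 9.75 and 9.70 in stretched cells, against 10.48, 10.59 and 10.73 in unstretched cells. The groups were far apart, and stretched cells had 43.8% less (log2 change -0.83 with an SE of 0.09, adjusted p = 2.82e-04, n = 3 each). Gm2a, the activator that lifts the ganglioside to the enzyme, had overlapping values of 6.50, 6.07 and 6.22 in stretched against 6.27, 6.37 and 6.28 in unstretched cells (log2 change -0.04, 95% interval -0.29 to 0.20).

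The sialidase Neu1, the carboxypeptidase Ctsa and the β-galactosidase Glb1 are held together in a lysosomal complex in which Ctsa protects the other two. Neu1 had log2 values of 8.98, 8.92 and 8.88 in stretched cells, against 9.51, 9.45 and 9.50 in unstretched cells, and fell by 0.55 (SE 0.08, adjusted p = 0.00130). Ctsa had log2 values of 10.48, 10.49 and 10.43 in stretched cells, against 11.04, 10.91 and 11.02 in unstretched cells, and fell by 0.52 (SE 0.08, adjusted p = 0.00199). Both were lower in every stretched sample, by about the same amount. Glb1 had log2 values of 7.44, 7.38 and 7.32 in stretched cells, against 7.29, 7.31 and 7.39 in unstretched cells, and its groups overlapped. Its log2 change was 0.05 (95% interval -0.13 to 0.23, adjusted p = 0.745), so the interval leaves out a fall of the size seen for the other two; the difference between these genes was not itself tested.

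Smaller falls were seen in enzymes that act on sulfatide, galactosylceramide and ceramide. The sulfatidase Arsa had log2 values of 7.04, 6.93 and 6.76 in stretched cells, against 7.42, 7.36 and 7.14 in unstretched cells, and fell by 0.40 (SE 0.11, adjusted p = 0.0282). Galc, the galactosylceramidase, had log2 values of 8.76, 8.42 and 8.72 in stretched cells, against 9.09, 8.84 and 9.17 in unstretched cells, and fell by 0.40 (SE 0.12, adjusted p = 0.0449). For both genes the highest stretched value lay just below the lowest unstretched value. Asah1, the acid ceramidase, had log2 values of 9.67, 9.70 and 9.64 in stretched cells, against 9.91, 10.04 and 10.02 in unstretched cells, and fell by 0.32 (SE 0.08, adjusted p = 0.0237). These 3 calls were not firm. That of Galc ended without unstretched replicates 1 or 3 or any 1 stretched replicate (adjusted p = 0.0627 to 0.163), that of Asah1 without unstretched replicates 2 or 3 or any 1 stretched replicate (0.0509 to 0.0814), and that of Arsa without unstretched replicates 1 or 2 or stretched replicates 2 or 3 (0.0715 to 0.113).

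The Fabry disease enzyme Gla did not pass. Its log2 values were 6.05, 5.83 and 5.66 in stretched cells, against 6.37, 5.92 and 6.09 in unstretched cells, and the groups overlapped (log2 change -0.28, 95% interval -0.57 to 0.01, adjusted p = 0.195). Psap, the precursor of the saposins that present sphingolipids to several of these enzymes, had a log2 change of -0.13 (95% interval -0.33 to 0.07), and the sphingomyelinase Smpd1 had one of -0.05 (-0.24 to 0.14).

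Glycosaminoglycan breakdown held the highest share of falls among the 6 role groups: 7 of 8 fell, 0 rose, and the median log2 change was -0.47. These enzymes remove sulfates and sugars from the ends of heparan, dermatan, chondroitin and keratan sulfate chains, among them the heparan sulfate of basement membranes. Arsb, which takes the sulfate off N-acetylgalactosamine in dermatan and chondroitin sulfate, had log2 values of 9.22, 9.19 and 9.07 in stretched cells, against 9.72, 9.87 and 9.85 in unstretched cells. It was lower in every stretched sample and fell by 0.65 (SE 0.09, adjusted p = 7.66e-04). Galns, a sulfatase for keratan and chondroitin sulfate, had log2 values of 7.08, 7.11 and 7.19 in stretched cells, against 7.73, 7.58 and 7.73 in unstretched cells, and fell by 0.55 (SE 0.09, adjusted p = 0.00187).

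Heparan sulfate is taken apart by a fixed series of enzymes, and of the 6 such enzymes among these genes 5 fell. Sgsh, the sulfamidase, had log2 values of 6.02, 5.98 and 5.76 in stretched cells, against 6.46, 6.64 and 6.42 in unstretched cells, and fell by 0.58 (SE 0.10, adjusted p = 0.00329), but its second, dimmer probe set did not pass (log2 change -0.06, adjusted p = 0.690 over every probe set). Naglu, which removes N-acetylglucosamine, had log2 values of 6.08, 5.71 and 5.48 in stretched cells, against 6.32, 6.28 and 6.42 in unstretched cells, and fell by 0.58 (SE 0.13, adjusted p = 0.0154). The stretched values of Naglu were spread over a wider range than the unstretched ones, and its highest, in replicate 1, lay near them. Hgsnat, a membrane enzyme that acetylates heparan sulfate ends before Naglu can act, had log2 values of 7.89, 7.82 and 7.67 in stretched cells, against 8.27, 8.16 and 8.10 in unstretched cells, and fell by 0.38 (SE 0.09, adjusted p = 0.0193). Idua, the iduronidase, had log2 values of 5.81, 6.03 and 6.16 in stretched cells, against 6.36, 6.43 and 6.32 in unstretched cells, and fell by 0.37 (SE 0.10, adjusted p = 0.0335). Gusb, the β-glucuronidase, had log2 values of 5.27, 5.13 and 5.29 in stretched cells, against 5.66, 5.65 and 5.56 in unstretched cells, and fell by 0.39 (SE 0.09, adjusted p = 0.0110). Neither gene's groups overlapped. The exception was Ids, the sulfatase that precedes Idua, whose log2 values of 10.16, 10.21 and 10.39 in stretched cells overlapped the 10.37, 10.46 and 10.44 of unstretched cells (log2 change -0.17, 95% interval -0.37 to 0.03, adjusted p = 0.250). Some of these calls rested on single arrays. Idua lost its call without unstretched replicates 1 or 2 or stretched replicates 1 or 2 (adjusted p = 0.0727 to 0.135), Hgsnat without unstretched replicate 1 or stretched replicates 2 or 3 (0.0519 to 0.0818), Naglu without stretched replicates 2 or 3 (0.0540 and 0.0564), and Gusb without stretched replicate 2 (0.0529).

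Of 5 enzymes of glycogen and glycoprotein glycans 4 fell and 0 rose, with a median log2 change of -0.49. Gaa, the acid α-glucosidase that frees glucose from glycogen, had log2 values of 9.01, 8.91 and 8.87 in stretched cells, against 9.51, 9.35 and 9.50 in unstretched cells, and fell by 0.53 (SE 0.09, adjusted p = 0.00268). Man2b1, the α-mannosidase, had log2 values of 7.85, 7.92 and 7.97 in stretched cells, against 8.47, 8.32 and 8.59 in unstretched cells, and fell by 0.54 (SE 0.09, adjusted p = 0.00328). A dimmer probe set of Man2b1 also fell, by 0.41 (adjusted p over all probe sets 0.0178), whereas a second probe set of Gaa, at a mean log2 value of 8.81 in stretched and 9.05 in unstretched cells, did not pass (log2 change -0.24, adjusted p = 0.0904). Manba, the β-mannosidase, had log2 values of 7.72, 7.51 and 7.67 in stretched cells, against 8.14, 7.94 and 8.29 in unstretched cells, and fell by 0.49 (SE 0.11, adjusted p = 0.0116), a call that ended without stretched replicate 2 (0.0520). Aga, which cleaves the bond between asparagine and the glycan, fell by 0.41 (SE 0.08, adjusted p = 0.00657), with log2 values of 9.67, 9.62 and 9.68 in stretched cells, against 10.13, 10.08 and 10.01 in unstretched cells. Fuca1, the fucosidase, was the exception: its log2 values of 7.65, 7.61 and 7.79 in stretched cells lay among the unstretched values of 7.67, 7.61 and 7.67, or above them. Its log2 change of 0.04 (95% interval -0.15 to 0.22) turned negative when the arrays were quantile normalized again (-0.03). In the fit of every probe set the others of Fuca1 had log2 changes of -0.26, -0.21 and 0.11 (adjusted p = 0.0934, 0.302 and 0.564).

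**Figure D3:**
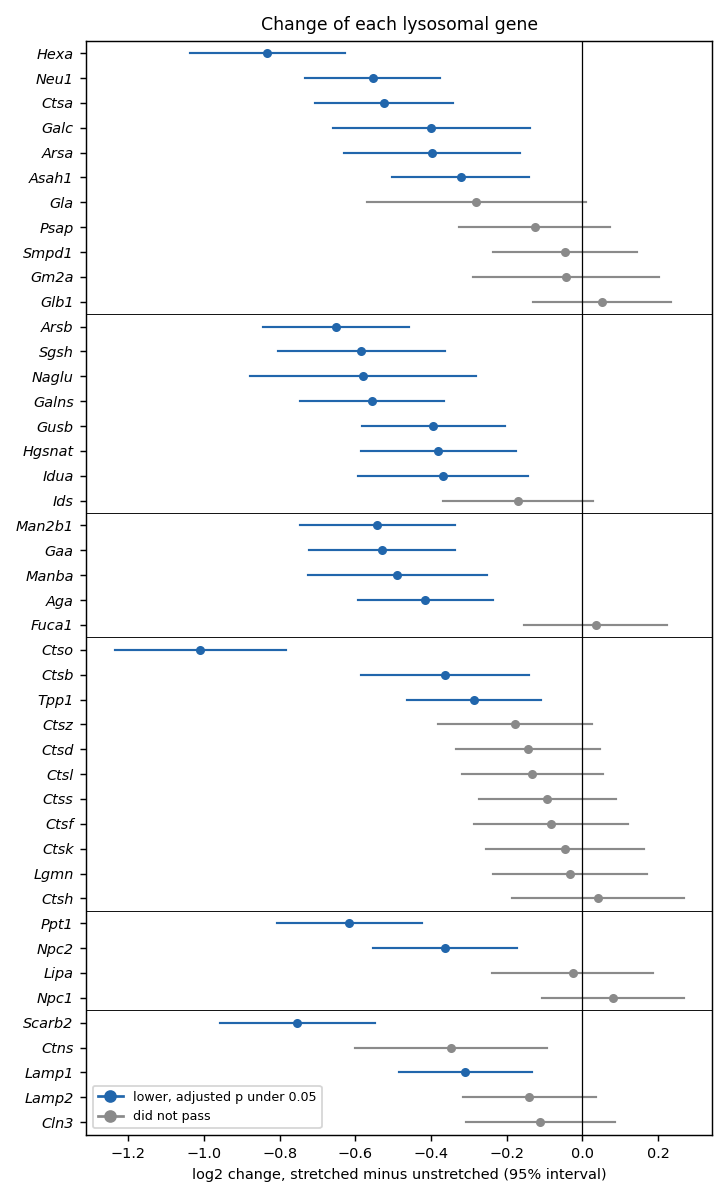
Log2 change (stretched minus unstretched) of each of the 44 genes with its 95% interval from limma (n = 3 arrays each), grouped by role. Blue genes passed the test, from Ctso at -1.01 to Tpp1 at -0.29; grey genes did not, and most of the 11 peptidases are among them.

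The peptidases held fewer calls: 3 of 11 fell, 0 rose, and the median log2 change was -0.13. One of them nevertheless had the deepest fall of all 44. Ctso, a cysteine peptidase of the papain family, had log2 values of 7.09, 7.10 and 7.40 in stretched cells, against 8.29, 8.18 and 8.15 in unstretched cells. Every stretched value lay well below the unstretched ones, and the level was 2.01-fold lower (log2 change -1.01, SE 0.10, adjusted p = 1.66e-04). A dim second probe set for Ctso differed little between the groups (log2 change -0.03; adjusted p = 0.904 in a fit of every probe set). Ctsb, a cysteine peptidase of the same family, had log2 values of 10.77, 10.63 and 10.57 in stretched cells, against 10.85, 11.12 and 11.10 in unstretched cells, and fell by 0.36 (SE 0.10, adjusted p = 0.0343). Its groups were separated by little, since unstretched replicate 1 was close to stretched replicate 1. Tpp1, which trims tripeptides from protein ends, had log2 values of 11.55, 11.55 and 11.54 in stretched cells, against 11.80, 11.80 and 11.90 in unstretched cells, and fell by 0.29 (SE 0.08, adjusted p = 0.0350). The Tpp1 call was lost on removing any 1 of the 6 arrays (adjusted p = 0.0593 to 0.105), and that of Ctsb without unstretched replicates 2 or 3 or stretched replicates 2 or 3 (0.0833 to 0.126). The other probe set of Tpp1 passed in the fit of every probe set, with a fall of 0.49 (adjusted p = 0.0154). Of the 4 others of Ctsb 1 passed (fell by 0.57, adjusted p = 0.0216). The brightest of those 4 changed by -0.20 in log2 units without passing (0.198), and the rest had -0.53 (0.151) and -0.05 (0.853).

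The other peptidases did not pass. Ctsl, a cysteine peptidase that in mouse podocytes is known to cut the cytoskeletal proteins dynamin and synaptopodin, had log2 values of 11.92, 11.87 and 11.74 in stretched cells, against 11.99, 11.998 and 11.93 in unstretched cells. The groups did not overlap but lay close together (log2 change -0.13, 95% interval -0.32 to 0.06, adjusted p = 0.356). The aspartic peptidase Ctsd had a log2 change of -0.14 (95% interval -0.33 to 0.05), and the asparaginyl endopeptidase Lgmn, which processes other cathepsins, had one of -0.03 (-0.24 to 0.17). Ctsf, Ctsh, Ctsk, Ctss and Ctsz were read by probe sets with mean log2 values below that of the median gene, and their log2 changes ran from -0.18 for Ctsz to 0.04 for Ctsh. At such signals little can be said, because low values can be background and the method used compresses changes of dim probe sets. Of the 44 genes, 7 were read by probe sets this dim and 1 of those fell (Gusb), while 23 of the other 37 fell.

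**Figure D4:**
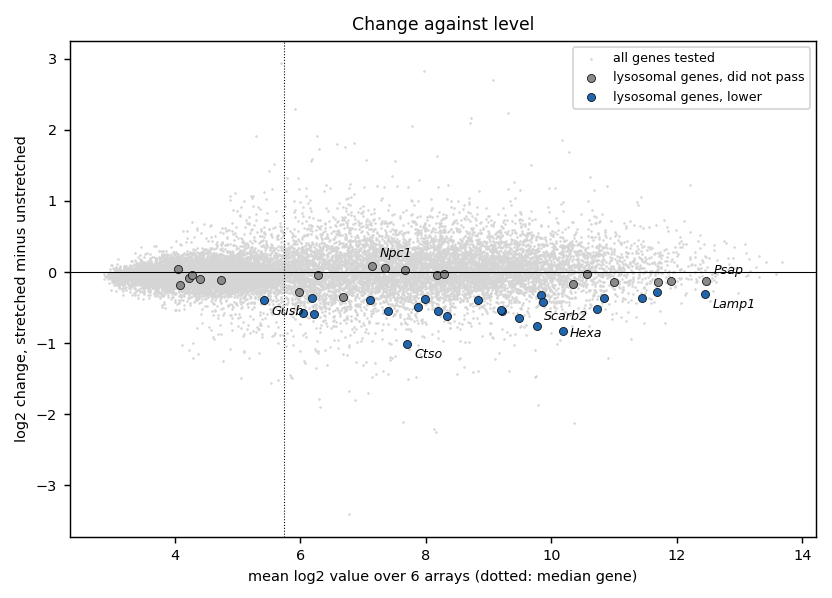
Mean log2 value of each gene's probe set over the 6 arrays (x) against its log2 change, stretched minus unstretched (y), with all 18193 genes in pale grey. The genes that fell (blue) spread over most of the range right of the dotted median, while left of it only Gusb is blue and the darker grey points lie near 0.

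Enzymes and carriers of lipids split: 2 of 4 fell. Ppt1, which removes palmitate from proteins during their breakdown, had log2 values of 8.15, 7.97 and 7.9998 in stretched cells, against 8.60, 8.65 and 8.71 in unstretched cells, and fell by 0.62 (SE 0.09, adjusted p = 0.00106). A second probe set of Ppt1 fell by 0.61 as well. Npc2, the soluble protein that binds cholesterol inside the lysosome, had log2 values of 11.23, 11.30 and 11.24 in stretched cells, against 11.59, 11.54 and 11.73 in unstretched cells, and fell by 0.36 (SE 0.09, adjusted p = 0.0173). That call ended without stretched replicates 1 (0.0700) or 3 (0.0615). Npc1, the membrane protein that takes cholesterol from Npc2, had log2 values of 7.27, 7.10 and 7.19 in stretched cells, against 7.06, 7.11 and 7.13 in unstretched cells. These overlapped, with a log2 change of 0.08 (95% interval -0.11 to 0.27, adjusted p = 0.590). Lipa, the acid lipase that frees that cholesterol, had a log2 change of -0.03 (95% interval -0.24 to 0.19), and its 2 dimmer probe sets had 0.26 and 0.29, neither of which passed.

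Of the 5 remaining membrane proteins 2 fell and 0 rose, with a median log2 change of -0.31. Scarb2, the receptor that carries β-glucocerebrosidase to lysosomes, had log2 values of 9.44, 9.48 and 9.27 in stretched cells, against 10.26, 10.08 and 10.11 in unstretched cells. The groups were well apart and the level was 40.7% lower (log2 change -0.75, SE 0.09, adjusted p = 4.81e-04). A second probe set of Scarb2, with mean log2 values of 7.76 in stretched and 8.03 in unstretched cells, had a smaller log2 change of -0.27 and did not pass (adjusted p = 0.0724 in the fit of every probe set). Lamp1, whose promoter is printed above, had log2 values of 12.28, 12.32 and 12.31 in stretched cells, against 12.64, 12.56 and 12.63 in unstretched cells, and fell by 0.31 (SE 0.08, adjusted p = 0.0251). The Lamp1 call ended without unstretched replicates 1 or 3 or any 1 stretched replicate (0.0514 to 0.0931). Lamp2, its close relative, which also serves chaperone-mediated autophagy, had log2 values of 11.60, 11.61 and 11.67 in stretched cells, against 11.72, 11.78 and 11.80 in unstretched cells. The groups did not overlap, yet the log2 change of -0.14 (95% interval -0.32 to 0.04) did not pass, with an adjusted p of 0.292. In the fit of every probe set the 3 others of Lamp2, a gene with several spliced forms, had log2 changes of 0.29, 0.19 and -0.07 (adjusted p = 0.0771, 0.303 and 0.655). Ctns, the cystine exporter, had log2 values of 6.54, 6.53 and 6.48 in stretched cells, against 6.84, 6.64 and 7.11 in unstretched cells. All stretched values were lower but the unstretched ones were widely spread (log2 change -0.35, SE 0.11, adjusted p = 0.0686), and without unstretched replicate 2 the gene passed (0.0249). The membrane protein gene Cln3 was read by a dim probe set (log2 change -0.11, adjusted p = 0.471).

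The rest of the lysosomal system moved unevenly. Of 23 measured proton pump subunits and lysosomal ion channels 13 fell and 0 rose in limma (17 and 0 at an unadjusted p under 0.05), with a median log2 change of -0.41. The largest moderated statistics there belonged to Ostm1, the β subunit of the lysosomal chloride transporter (fell by 0.88, SE 0.09), the pump subunit Atp6v0a1 (fell by 0.72, SE 0.08), the calcium channel Mcoln1 (fell by 0.76, SE 0.09) and the channel Tpcn1 (fell by 0.62, SE 0.08), each in log2 units. Of 20 other lysosomal membrane proteins and transporters 9 fell and 2 rose, with a median log2 change of -0.28. In this list the transporter Mfsd1 fell by 0.76 (SE 0.08) and the glycoprotein Cd68, which is also widely used as a macrophage marker, fell by 0.89 (SE 0.12), while Tmem63a rose by 0.77 (SE 0.14) and Laptm4b rose by 0.69 (SE 0.13).

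Of 20 further genes listed as lysosomal hydrolases and cofactors, 3 fell and 1 rose, with a median log2 change of -0.09. The list was not limited to soluble proteins, and the difference from the 44 was not tested. Creg1, a secreted and lysosomal glycoprotein, fell by 1.09 (SE 0.11, adjusted p = 1.53e-04), the dipeptidyl peptidase Dpp7 fell by 0.69 (SE 0.14) and progranulin (Grn) fell by 0.41 (SE 0.08). The gene that rose, Tpp2 (log2 change 0.33, SE 0.08), encodes a cytosolic peptidase and not a lysosomal one. Among 22 genes of hydrolase sorting 5 fell and 2 rose, with a median log2 change of -0.02. Cln6, a membrane protein of the endoplasmic reticulum needed for enzyme export, fell by 0.99 (SE 0.10), the retromer subunit Vps26a fell by 0.43 (SE 0.08) and the sorting adaptor Gga2 fell by 0.57 (SE 0.11), while the adaptor subunit Ap1s1 rose by 0.71 (SE 0.11). Of 7 cathepsin inhibitors 0 fell and 1 rose in limma, the serpin Serpinb6a (log2 change 0.73, SE 0.09, adjusted p = 3.77e-04). At an unadjusted p under 0.05, 0 of the 7 were lower and 3 higher, beside 13.4% lower and 14.4% higher of all genes.

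Of 20 genes for MiT/TFE factors and their regulators 6 fell and 0 rose in limma (7 and 0 at an unadjusted p under 0.05), with a median log2 change of -0.14. The falls were in regulators at the lysosomal surface, led by the GTPase Rragd (log2 change -1.71, SE 0.15), Lamtor1, which anchors them (fell by 0.55, SE 0.08), and Rragc (fell by 0.52, SE 0.09), and in the repressor Bhlhe40 (fell by 0.43, SE 0.10). The factors themselves, named here after their values were seen, did not pass. Tfeb had a mean log2 value of 7.24 in stretched and 7.23 in unstretched cells (log2 change 0.01, 95% interval -0.17 to 0.19), Tfe3 had a log2 change of -0.27 (-0.62 to 0.08) and Mitf had one of 0.03 (-0.24 to 0.30). Their activity is set largely by where the proteins sit in the cell, which these arrays do not read.

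**Figure D5:**
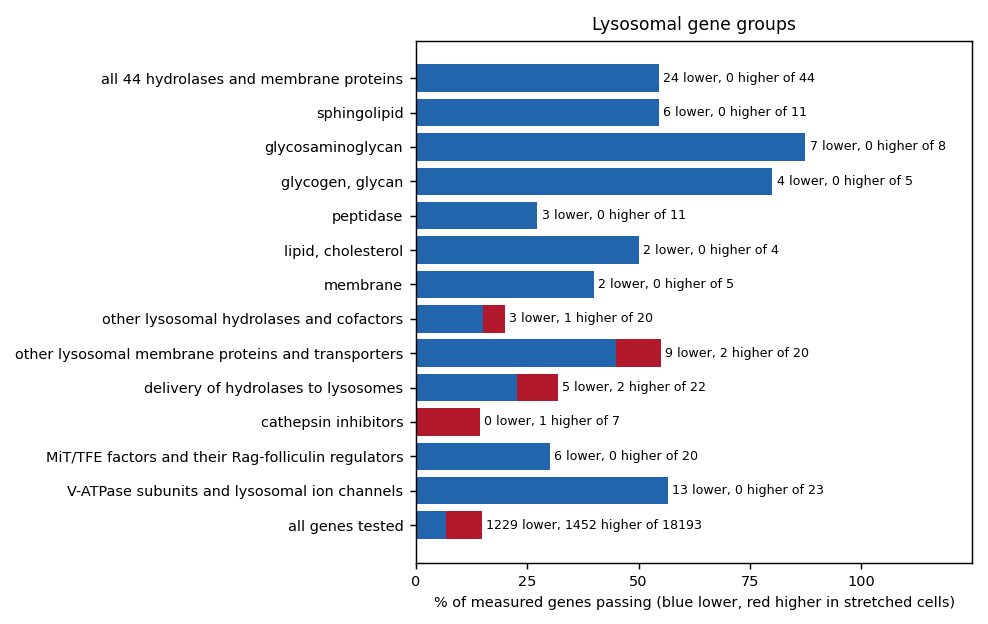
Percent of the measured genes of each list that passed limma's test, lower (blue) or higher (red) in stretched than in unstretched cells, with the counts printed at each bar. The 44 hydrolases and membrane proteins come first (24 lower, 0 higher), their role groups next, then other lysosomal lists, and all 18193 genes last.

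Macrophages are rich in lysosomes, so their markers were read as well. Of 14 macrophage and leukocyte markers 3 fell (Csf1r, Fcer1g and Cd74) and 1 rose (Cd14). At an unadjusted p under 0.05, 5 were lower, with Ptprc and Adgre1 added, and 1 higher, beside 13.4% lower and 14.4% higher of all genes. Of the 14 log2 changes 10 were negative, beside 9743 among all 18193 genes. The 3 falls had the sign of the lysosomal ones, while Cd14, the brightest gene of the list, rose by 0.81 in log2 units (SE 0.10). The summed level of the list, on the linear scale, was 1533 to 1723 on stretched arrays, against 1299 to 1420 on unstretched arrays, but that order came from Cd14 alone. Without Cd14 the sum was 615 to 669 in stretched and 763 to 884 in unstretched cells, and without Cd14 and Csf1r it was 298 to 307 in stretched and 322 to 347 in unstretched cells; these sums were added after the values were seen. Of these 14 markers 12 were read by probe sets dimmer than that of the median gene, among them the defining markers Ptprc (mean log2 value 4.06 in stretched and 4.34 in unstretched cells), Itgam (3.75 and 3.78) and Lyz2 (4.52 and 4.44). Of 10 podocyte markers 1 fell (Synpo) and 0 rose in limma (2 higher at an unadjusted p under 0.05), and their summed level was 6305 to 6376 in stretched and 5547 to 6010 in unstretched cells. The broadly expressed Actn4 and Cd2ap made up most of that sum, which without them was 676 to 714 in stretched and 791 to 852 in unstretched cells. The median log2 change of the list was -0.09. Of these 10 markers 5 were read by probe sets dimmer than that of the median gene: Ptpro, Tcf21, Lmx1b, Trpc6 and the slit diaphragm gene Nphs1 (4.91 and 5.01). Podxl (7.73 and 7.95) and Wt1 (6.85 and 6.60) were among the brighter ones. Of the lists for other cells, 0 of 10 endothelial markers were called. In limma 1 of 7 mesangial markers rose (Pdgfrb), 1 of 8 tubule markers rose (Cubn) and 1 of 8 fibroblast markers fell (Dcn). Over all genes 7.98% were called higher and 6.76% lower. At an unadjusted p under 0.05, 1 endothelial, 2 mesangial and 2 tubule markers were higher and 1 fibroblast marker was lower. Summed levels in stretched against unstretched cells were 444 to 468 against 384 to 451 for the endothelial list, 663 to 714 against 541 to 559 for the mesangial list, 2734 to 3443 against 2484 to 3030 for the tubule list and 256 to 279.7 against 466 to 540.1 for the fibroblast list. In the tubule list Cdh16 (mean log2 value 10.89 in stretched and 10.54 in unstretched cells) and Lrp2 (10.13 and 10.07) were brighter than the median gene. Without the brightest gene of each of the 4 lists for other cells the groups' sums overlapped. The part of any of these in the lysosomal falls was not tested.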

How the data were processed

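RNA of 3 stretched and 3 unstretched samples was read on Affymetrix mouse arrays; groups and replicate numbers came from the titles. The authors deposited 1 log2 value per probe set and array, made with RMA per the submitters' processing notes. Its version and options were not stated there. RMA shrinks changes at dim probe sets, and it evens out the arrays, so a shift of all genes cannot be seen.

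Of 45101 probe sets the 64 controls were not fitted; 34945 others had 1 symbol, 932 several and 9160 were not listed in the platform annotation. For each of 18193 genes the probe set with the highest mean over all 6 arrays was used; 29 of the 44 lysosomal genes had more than 1. Stretched minus unstretched was fitted on all genes with limma 3.58.1 (lmFit, eBayes; R 4.3.3) and no covariate; genes were called at a Benjamini-Hochberg adjusted p under 0.05. The steps were tested on simulated data. Adjusted p-values given over all probe sets come from a fit of all 45037. Replicate numbers were not treated as pairs. Members and lists were chosen with earlier results of these data known. All 44 members were to be described, with values on every array for those that passed, and from other lists up to 4 called genes by moderated statistic, or all called where 5 or fewer. Promoter windows came from RefSeq tables.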

Additional observations from a re-analysis of the deposited data

How the results depend on the processing

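The count of lysosomal genes that fell, 24, was 21 to 25 under the 10 settings that kept all arrays, among them 24 with the replicate block and 25 with it as a random block, and 13 to 20 with 1 array left out. No setting called any of the 44 higher in limma (0 throughout; also 0 at an unadjusted p under 0.05 in the fit reported). Over all genes, leaving out 1 array gave 767 to 1189 lower and 872 to 1450 higher calls. The median log2 change was -0.38 after a further quantile normalization or after cyclic loess, -0.26 with all probe sets of a gene averaged, and -0.34 to -0.30 with 1 array left out. The replicate block changed no call of the 24; deviations of same-numbered samples from their group means correlated at 0.02, 0.15 and 0.28, and stretched replicate 1 correlated best with unstretched replicate 2. Among single genes, 50 results lost their call (42 with an array left out, 8 under other settings) and 5 gained one, all of them Ctns. With other settings Galc lost its call with arrays centred on their medians (adjusted p = 0.0698), averaged probe sets (0.173) and every probe set tested (0.0627), Gusb (0.271) and Idua (0.146) with averaged probe sets, Tpp1 with centred arrays (0.0586) and every probe set tested (0.0505), and Ctsb with centred arrays (0.0501).

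Log2 changes that turned their sign belonged to genes that did not pass; the cause was not tested. With a further quantile normalization the log2 change was -0.0115 for Glb1, -0.0345 for Fuca1. With cyclic loess the log2 change was -1.39e-04 for Glb1, -0.0205 for Fuca1. With averaged probe sets the log2 change was 0.0269 for Gm2a, -0.0811 for Fuca1, 0.0247 for Ctsf, -0.00473 for Ctsh, 0.18 for Lipa, 0.0662 for Lamp2. With centred arrays the log2 change was 0.00234 for Lipa. With a probe set without a suffix the log2 change was 0.26 for Lipa. With 1 array left out it ranged from -0.0851 to 0.00112 for Smpd1, -0.16 to 0.0543 for Gm2a, -0.0187 to 0.0718 for Fuca1, -0.0263 to 0.13 for Ctsh, -0.12 to 0.0262 for Ctsk, -0.095 to 0.0365 for Lgmn, -0.10 to 0.0169 for Lipa. Signal over background is unknown, so the 7 dim probe sets limit what can be read for Gusb, Ctsf, Ctsh, Ctsk, Ctss, Ctsz and Cln3.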
